A study of Homo sapiens with 24 samples.

Results

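Epithelial-mesenchymal transition (EMT) is the change in which epithelial cells loosen their junctions and take on a motile, fibroblast-like state. This report follows 10 of its genes in PPC1 prostate cancer cells and in the polyploid giant cancer cells (PGCC) that form from them after radiation. The genes were taken by symbol from a table of 48162 genes: CDH1, CDH2, EPCAM, VIM, FN1, ZEB1, ZEB2, SNAI1, SNAI2 and TWIST1. Each symbol matched 1 row of the table.

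The RNA-seq data cover 4 conditions, each with 6 libraries, or 24 libraries in all. Parental PPC1 cells were plated on day 1 and received no radiation. PGCC came from the same cells given 8 Gy on day 2 and were caught on a 20 micron strainer, and all cells were harvested on day 5. Each population was also exposed to 5 µM LCL521 for 5 h, a pro-drug that inhibits the acid ceramidase ASAH1. The study's methods call the day of that exposure day 3. Parental cells were not filtered, so radiation and selection by size cannot be told apart. All libraries came from 1 cell line, and the work was repeated in 6 experiments in which the 4 conditions were harvested together, so that a replicate number stands for an experiment. Total counts lay between 14835246 and 19906601 per library.

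In EMT, transcription factors of the ZEB, SNAI and TWIST families bind E-box sequences in the promoters of epithelial genes and turn them off. The best known of these targets is CDH1, which encodes E-cadherin, the adhesion molecule of epithelial junctions. N-cadherin from CDH2, the intermediate filament protein vimentin from VIM and the matrix protein fibronectin from FN1 are the usual marks of the mesenchymal state. EPCAM, an adhesion molecule of the epithelial surface, marks the other end of the scale.

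Between PGCC and parental cells, FN1, ZEB1 and VIM were higher in PGCC, and the change in FN1 was 5.16-fold. With LCL521 in both populations the same 3 genes rose, SNAI1 and SNAI2 rose as well, and CDH1 fell. CDH2, ZEB2 and TWIST1 passed the test in neither comparison, and EPCAM was too low to be tested. Thus 3 of the 9 tested genes passed the test without LCL521 and 6 of 9 passed it with LCL521, by edgeR's quasi-likelihood test at an adjusted p under 0.05. The background was high. Without LCL521, 47.4% of all genes tested were called, 23.1% higher and 24.3% lower in PGCC. With LCL521 the share was 48.9%, of which 25% were higher and 23.9% lower. The 2 comparisons have no library in common. Whether the PGCC change itself differed between cells with and without LCL521 was tested by the interaction, which called 0 of the 10 genes.

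The promoters of FN1 and ZEB1 are shown because these 2 genes stood apart between the populations in every library. Of the 10 genes, 5 were found in the RefSeq promoter table (build GRCh38.p14): CDH2, FN1, VIM, ZEB1 and ZEB2. CDH1, EPCAM, SNAI1, SNAI2 and TWIST1 were not matched. The 250 bases before the start were searched on both strands for the E-box CAGGTG, which reads CACCTG on the other strand and is the form that ZEB and SNAI factors bind. The cAMP response element TGACGTCA and the CCAAT box were searched in the same way. Capitals mark a match, and both sequences are written 5′ to 3′ on the strand of the gene.
FN1, chr2:215436069-215436318, minus strand: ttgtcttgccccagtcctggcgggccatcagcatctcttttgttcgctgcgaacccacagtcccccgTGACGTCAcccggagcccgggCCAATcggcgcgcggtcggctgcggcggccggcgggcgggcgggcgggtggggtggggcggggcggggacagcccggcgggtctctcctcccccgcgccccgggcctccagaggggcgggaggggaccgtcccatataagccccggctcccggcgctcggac
ZEB1, chr10:31318966-31319215, plus strand: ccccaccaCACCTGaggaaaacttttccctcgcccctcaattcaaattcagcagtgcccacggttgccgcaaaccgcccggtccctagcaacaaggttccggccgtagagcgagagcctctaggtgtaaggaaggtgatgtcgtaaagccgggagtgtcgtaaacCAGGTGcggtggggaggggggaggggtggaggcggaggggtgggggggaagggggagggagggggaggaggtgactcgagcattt
The FN1 window held TGACGTCA 183 bases before the start, a sequence found in 1.65% of the 35116 promoters in the table, and CCAAT 162 bases before the start, found in 32% of them. It held no E-box of this form. ZEB1 has 7 listed starts, and the one shown, which held the most matches, had the E-box 242 and 85 bases before its start. Another ZEB1 window held it once, 57 bases before the start, and the other 5 windows had no match. The VIM and ZEB2 windows held none of the 3 sequences, and both CDH2 windows held only a CCAAT box. The E-box was found in 17.5% of all promoters of this length. A match describes the letters in the window and is not evidence of binding.

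Levels are given as CPM, in which counts are set relative to library size scaled by TMM factors over all 24 libraries. To compare genes with each other, CPM was divided by the gene length listed in the table, in kilobases, to give FPKM. In parental cells VIM was the most abundant of the 10 transcripts, with a mean of 171 FPKM, followed by CDH2 with 43.3 FPKM. The transcription factors came next, TWIST1 at 12.1, SNAI2 at 7.66, ZEB1 at 6.95 and SNAI1 at 3.15 FPKM. FN1 at 1.02 FPKM and CDH1 at 0.633 FPKM followed, and ZEB2 at 0.145 FPKM and EPCAM at 0.118 FPKM closed the order. The libraries' ranges overlapped between the neighbours TWIST1 and SNAI2, SNAI2 and ZEB1, SNAI1 and FN1, FN1 and CDH1, and ZEB2 and EPCAM. The other neighbours did not overlap. Per length, then, the mesenchymal cadherin was far above the epithelial one before any radiation.

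The order differed in PGCC mainly through FN1, which stood at 5.17 FPKM against 4.20 FPKM for SNAI1, with overlapping ranges. SNAI2 at 10.8 FPKM came next after CDH2 there, but its range overlapped that of TWIST1 at 9.92 FPKM, which in turn overlapped that of ZEB1 at 9.39 FPKM. The ratio of CDH2 to CDH1, both in FPKM, was 81.5 ± 37.7 (SD, n = 6) in parental cells and lay between 34.5 and 142. With LCL521 it was 59.1 ± 18.3 in parental cells and 119 ± 30.8 in PGCC, and PGCC without LCL521 had 100 ± 28.4. The ranges of this ratio overlapped among all 4 conditions.

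**Figure D1:**
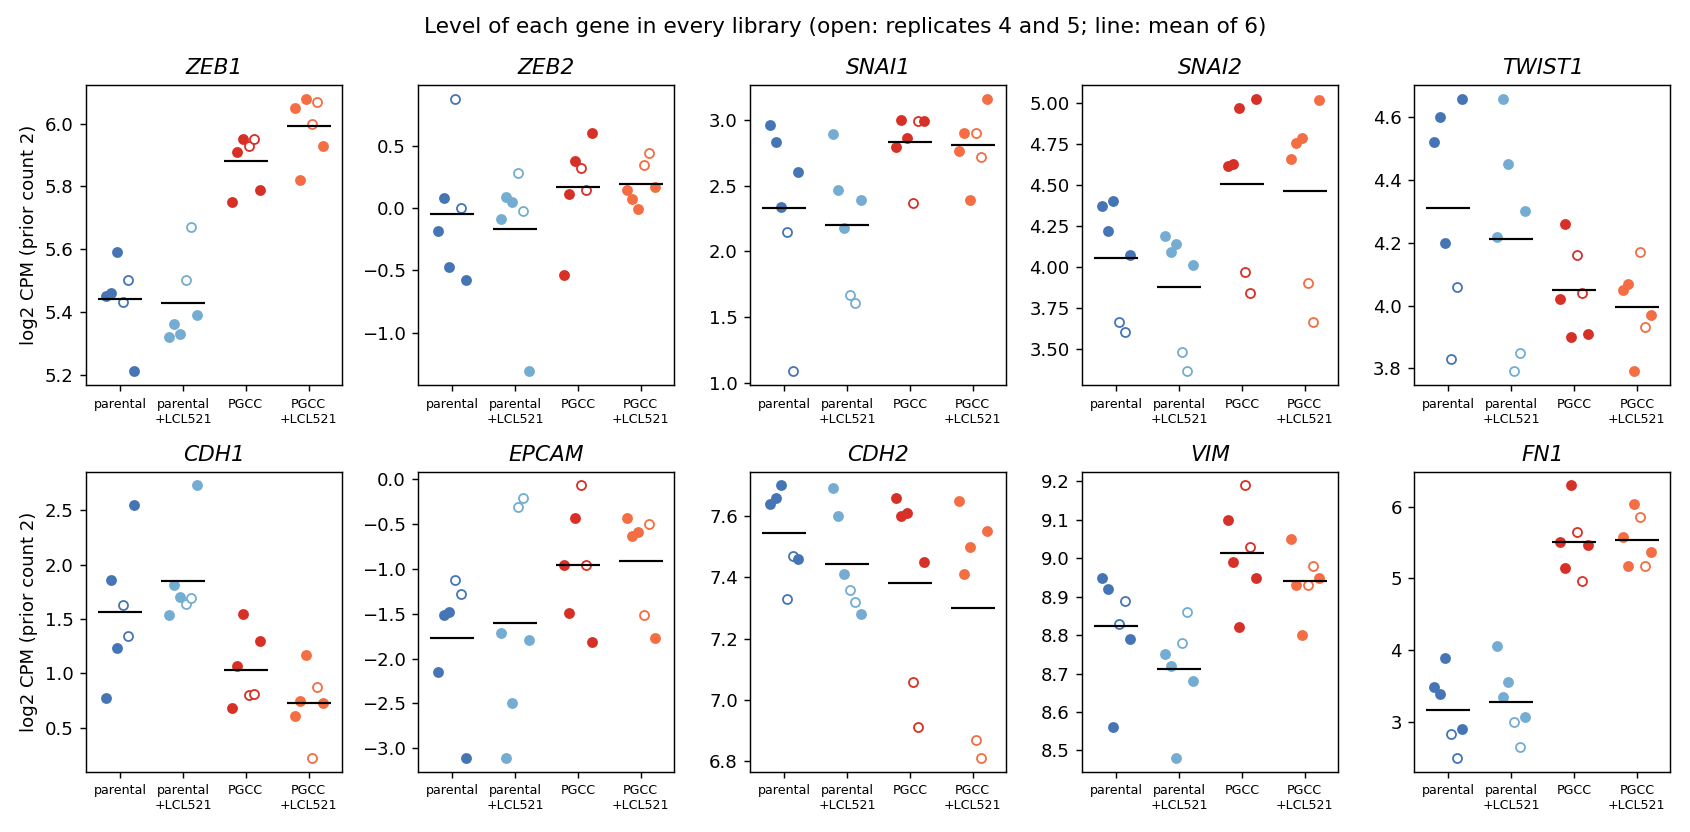
Level of each of the 10 genes in every library, as log2 CPM with a prior count of 2, by condition on the horizontal axis. Each point is 1 library, open points are replicates 4 and 5, and the line is the mean of 6. FN1 and ZEB1 show no overlap between PGCC and parental cells, while SNAI2 is lowest in replicates 4 and 5 in all 4 conditions.

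The libraries of replicates 4 and 5 lay apart from the other 16 on the second principal component of log2 CPM, which held 16.5% of the variance. The first component held 55.7% and separated all PGCC from all parental libraries. The share of counts on mitochondrial genes was between 4.10% and 5.33% in replicates 4 and 5, and between 0.954% and 4.55% in the others. Several of the 10 genes moved with these replicates, and values without them are given beside those genes. The part of these replicates in the results was not tested.

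ZEB1 (ENSG00000148516, chromosome 10 from 31607424 to 31818742, hg19) encodes a zinc finger repressor of CDH1 and of other epithelial genes. In parental cells it ranged from 37 to 48.2 CPM with a median of 43.8 CPM, and in PGCC from 53.7 to 61.7 CPM with a median of 60.5 CPM. Every PGCC library was above every parental one. ZEB1 was 1.37-fold higher in PGCC (95% interval 1.22 to 1.54), with a log2 fold change of 0.46 ± 0.08 (SE) and an adjusted p of 0.000314 by edgeR's quasi-likelihood test. With LCL521 the 2 populations were again apart, with 39.9 to 50.7 CPM (median 41.3) in parental cells and 56.5 to 67.4 CPM (median 64.9) in PGCC. The fold was 1.52 (1.34 to 1.73, adjusted p = 4.67e-05). The rise was seen in 6 of 6 experiments in both comparisons and lay between 0.29 and 0.75 on the log2 scale in single experiments. Without LCL521, 27.1% of all genes tested did not overlap between the 2 populations, and with LCL521 28.4% did not.

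Its antisense neighbour ZEB1-AS1 had at most 34 counts per library, against at least 534 for ZEB1. The strand setting of the counting is not given in the sources used here, so reads of the overlapping part cannot be assigned. ZEB2, the second ZEB factor, was close to the limit of detection. It had between 8 and 30 counts per library in parental cells and between 10 and 25 in PGCC, with means of 0.912 ± 0.426 and 1.04 ± 0.279 CPM (SD, n = 6). A level of 3 counts, taken here as the floor, equals 0.147 to 0.208 CPM. The log2 fold change of ZEB2 was 0.20 with a 95% interval from -0.44 to 0.85, which leaves either direction possible. With LCL521 it was 0.37 (-0.20 to 0.93).

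SNAI2 encodes Slug, a repressor of junction genes that is also used by migrating neural crest cells. Its level in parental cells was 12 to 21 CPM (median 17.6), and in PGCC 14.2 to 32.6 CPM (median 24.6). The populations overlapped, and replicates 4 and 5 were the lowest 2 of 6 in each of the 4 conditions, at 10.1 to 15.5 CPM. Within every experiment, however, SNAI2 was higher in PGCC. The log2 fold change was 0.52 ± 0.22, with an adjusted p of 0.0646 by edgeR. With the experiment as a block the same comparison gave 0.48 ± 0.11 and passed the test (adjusted p = 0.00479), as did 56.2% of all genes tested with this block. Together with SNAI2, 4 of 9 genes were then called. Leaving out replicates 4 and 5 gave 0.58 (adjusted p = 0.00155).

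With LCL521 in both populations, SNAI2 lay between 10.1 and 18.1 CPM (median 16.5) in parental cells and between 12.5 and 32.2 CPM (median 26) in PGCC, and it was 1.6-fold higher in PGCC (1.15 to 2.23, adjusted p = 0.0219). It was higher in 6 of 6 experiments. This call was lost when replicate 2, 3 or 6 was left out, with adjusted p of 0.0593, 0.0531 and 0.0787, and the log2 fold change then stayed between 0.56 and 0.67. With the block it was 0.64 (adjusted p = 0.000602), and 56.3% of all genes tested were called.

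SNAI1 encodes Snail, a short-lived repressor whose amount is set largely by protein turnover. It ranged from 2.01 to 7.66 CPM (median 5.46) in parental cells and from 5.06 to 7.86 CPM (median 7.47) in PGCC. The lowest parental libraries were those of replicates 5 and 4, and the ranges overlapped. Without LCL521 the log2 fold change was 0.44 (-0.09 to 0.97), which missed the threshold (adjusted p = 0.161). With LCL521 the range was 2.93 to 7.28 CPM in parental cells and 5.14 to 8.81 CPM in PGCC, and SNAI1 was 1.53-fold higher (1.12 to 2.09, adjusted p = 0.0252). That call was lost without replicate 2, 4, 5 or 6, with adjusted p from 0.0552 to 0.082. Without both replicates 4 and 5 the log2 fold change was 0.38 (adjusted p = 0.123). The mean difference within experiments was 0.32 on the log2 scale in replicates 1, 2, 3 and 6 and 1.17 in replicates 4 and 5. Without LCL521 the same means were 0.23 and 1.06.

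TWIST1 encodes a basic helix-loop-helix factor that acts in mesoderm and in EMT. Parental cells ranged from 14.1 to 25.2 CPM (median 20.5), and PGCC from 14.8 to 19.1 CPM (median 16.2). Over all 6 experiments the log2 fold change was -0.26 (-0.57 to 0.04), and it missed the threshold (adjusted p = 0.142). The 4 experiments 1, 2, 3 and 6 differed from experiments 4 and 5 in the sign of the mean. In those 4, the mean difference of PGCC from parental cells was -0.47 on the log2 scale, and in the other 2 it was 0.15. Fitted without replicates 4 and 5, TWIST1 was lower in PGCC, with a log2 fold change of -0.45 (adjusted p = 0.00995). With LCL521 the same 4 experiments gave -0.40 (adjusted p = 0.0148), against -0.20 (adjusted p = 0.27) in all 6. Leaving out replicate 4 alone gave -0.37 (adjusted p = 0.0448) without LCL521. The difference between the 2 sets of experiments was not tested.

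**Figure D2:**
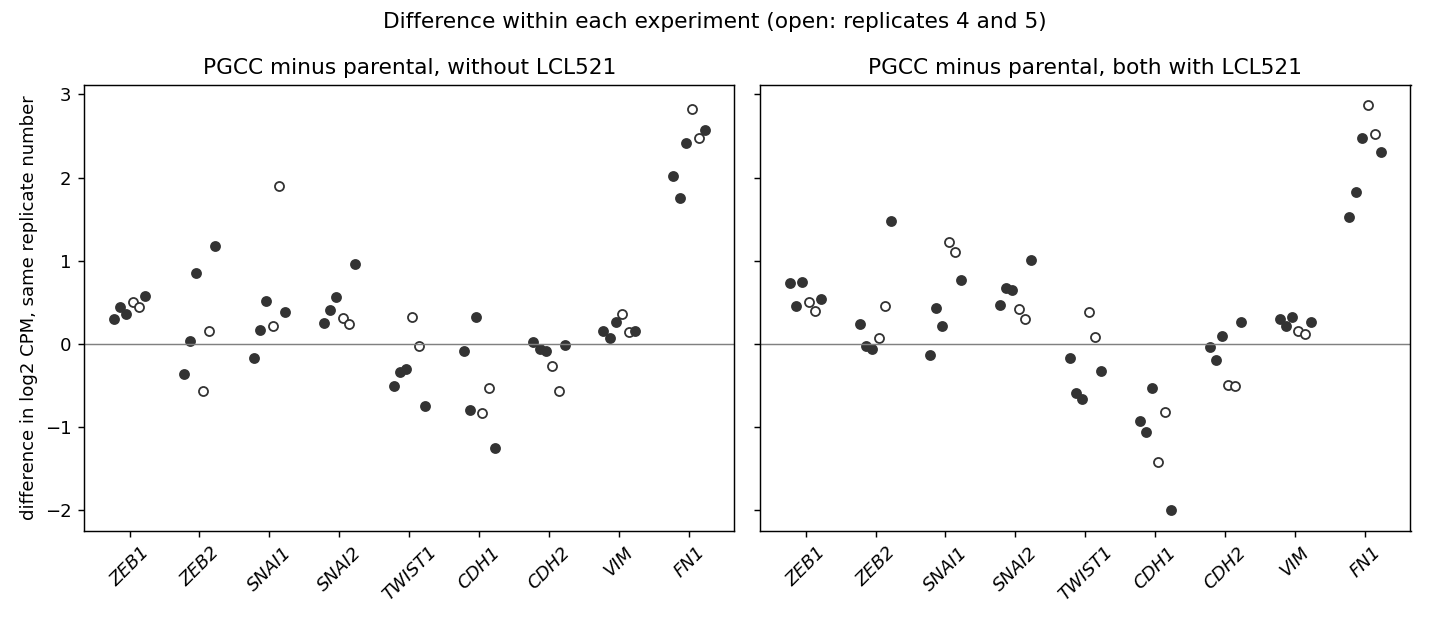
Difference in log2 CPM between the PGCC and the parental library of the same experiment, without LCL521 on the left and with LCL521 on the right, for the 9 genes that could be tested. Each point is 1 of 6 experiments and open points are replicates 4 and 5. ZEB1, SNAI2, VIM and FN1 lie above 0 in all 6 experiments on both sides, whereas TWIST1 and CDH2 differ between the open and the filled points.

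CDH1 (ENSG00000039068, chromosome 16 from 68771128 to 68869445) was expressed at a low level in PPC1 cells. Parental libraries held between 29 and 83 of its reads, and PGCC libraries between 26 and 45. In CPM this was 1.59 to 5.75 (median 2.70) and 1.48 to 2.82 (median 1.81), with overlap. The log2 fold change was -0.61 (-1.23 to 0.01) with an adjusted p of 0.0964, and CDH1 was lower in 5 of 6 experiments. With LCL521 the parental range was 2.78 to 6.52 CPM (median 3.12) and the PGCC range was 1.05 to 2.13 CPM (median 1.55), and no library overlapped. CDH1 there fell to 0.442 of the parental level (0.306 to 0.639, adjusted p = 0.00132), in 6 of 6 experiments.

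The 2 CDH1 changes differed by -0.58 on the log2 scale (95% interval -1.37 to 0.20) in a fit to all 24 libraries. The unadjusted p was 0.14 by edgeR, in a fit without a term for the experiment. With the experiment as a block, edgeR again called 0 of the 10 genes for this interaction. The smallest unadjusted p among them was then 0.0613. The call in one comparison and not in the other does not show that LCL521 altered the change. When both pairs of populations were averaged in one fit to the 24 libraries, a setting added after the data were seen, CDH1 was lower in PGCC, with a log2 fold change of -0.91 (adjusted p = 0.000202). That fit called 7 of the 10 genes, against 64.5% of all genes tested, with CDH1 and TWIST1 lower and VIM, FN1, ZEB1, SNAI1 and SNAI2 higher in PGCC. With the block added it called 9, all but ZEB2, against 74% of all genes tested. The calls gained were CDH2, lower in PGCC (-0.14, adjusted p = 0.0487), and EPCAM, higher in PGCC (0.87, adjusted p = 0.0354). Both averaged fits count the libraries with and without LCL521 of the same experiment and population as independent. Deviations of such libraries from their condition means correlated at a median of 0.653 in parental cells and 0.532 in PGCC. The block holds no term for an experiment within a population, so these p-values can be too small.

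EPCAM was near the floor in all conditions, and its low counts did not pass the filter of any comparison between 2 conditions. Without LCL521 it had 0 to 6 counts per library in parental cells and 3 to 17 in PGCC, or 21 and 49 counts over 6 libraries. With LCL521 it had 0 to 12 and 3 to 12, or 31 and 48 counts in sum. In a fit without the filter the log2 fold change between PGCC and parental cells was 1.08 (adjusted p = 0.142), and with LCL521 it was 0.53 (adjusted p = 0.487). By these fits a difference in EPCAM was not detected, although without LCL521 it was higher in PGCC in 6 of 6 experiments. In the edgeR fit that averaged both pairs of populations, the log2 fold change of EPCAM was 0.82 (adjusted p = 0.0853). With the block added it was 0.87 and passed the test (adjusted p = 0.0354). Both of these fits count libraries with and without LCL521 of the same experiment and population as independent.

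CDH2 (ENSG00000170558, chromosome 18 from 25530930 to 25757410) was abundant, and its difference missed the threshold in both comparisons. Its level was 161 to 208 CPM (median 188) in parental cells and 120 to 202 CPM (median 185) in PGCC. The log2 fold change was -0.12 with a 95% interval from -0.39 to 0.15 (adjusted p = 0.465). With LCL521 it was -0.07 (-0.36 to 0.22). Replicates 4 and 5 were the lowest in PGCC, at 133 and 120 CPM. Fitted on these replicates alone, CDH2 was lower in PGCC, with a log2 fold change of -0.39 (adjusted p = 0.0153), and with LCL521 it was -0.46 (adjusted p = 0.00125). In the other 4 experiments the log2 fold change was -0.01 without and 0.08 with LCL521.

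VIM (ENSG00000026025, chromosome 10 from 17270258 to 17279592) had by far the most counts of the 10 genes. Parental cells held 378 to 494 CPM (median 464) and PGCC 453 to 586 CPM (median 516), with overlapping ranges. The rise was small, 1.16-fold (1.03 to 1.31, adjusted p = 0.0404), and was present in 6 of 6 experiments. The call was lost when replicate 1, 2, 4, 5 or 6 was left out, with adjusted p between 0.0657 and 0.102, and the log2 fold change then ranged from 0.18 to 0.23. Without both replicates 4 and 5 it was 0.18 (adjusted p = 0.0983). With LCL521 VIM was at 356 to 465 CPM (median 426) in parental cells and 446 to 528 CPM (median 491) in PGCC, and the fold was 1.2 (1.08 to 1.34, adjusted p = 0.00707). That call held without each replicate in turn, and was lost on replicates 4 and 5 alone (0.17, adjusted p = 0.118). VIM-AS1 on the other strand had at most 49 counts per library.

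FN1 (ENSG00000115414, chromosome 2 from 216225163 to 216300895) showed the largest change of the 10. It lay between 5.49 and 14.7 CPM in parental cells (median 8.83) and between 31.0 and 78.8 CPM in PGCC (median 44.7). The lowest PGCC library was thus above the highest parental one. FN1 rose 5.16-fold (3.51 to 7.59), with a log2 fold change of 2.37 ± 0.26 and an adjusted p of 6.23e-06. Of all genes tested 2.46% had a larger log2 fold change in either direction. With LCL521 the ranges were 6.16 to 16.5 CPM (median 9.18) and 35.9 to 65.8 CPM (median 44.5), and the fold was 4.87 (3.5 to 6.78, adjusted p = 1.65e-06).

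Single genes were also compared by two-sided exact permutation tests on log2 CPM. For FN1 and ZEB1 the exact permutation test over all divisions of the libraries gave p = 0.00216 in both comparisons, and for CDH1 it gave the same p with LCL521. This is the smallest p that the design allows. Over all sign changes of the 6 differences within experiments, the exact p was 0.0312, again the smallest possible, for FN1, ZEB1, VIM and SNAI2 in both comparisons. It was also 0.0312 for CDH1 with LCL521 and for EPCAM without it. A gene whose 2 populations do not overlap gets the smallest p in both tests. Of all genes tested, 27.1% did not overlap without LCL521 and 28.4% did not with it. The share of all genes with 6 of 6 differences in the same direction was not determined.

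**Figure D3:**
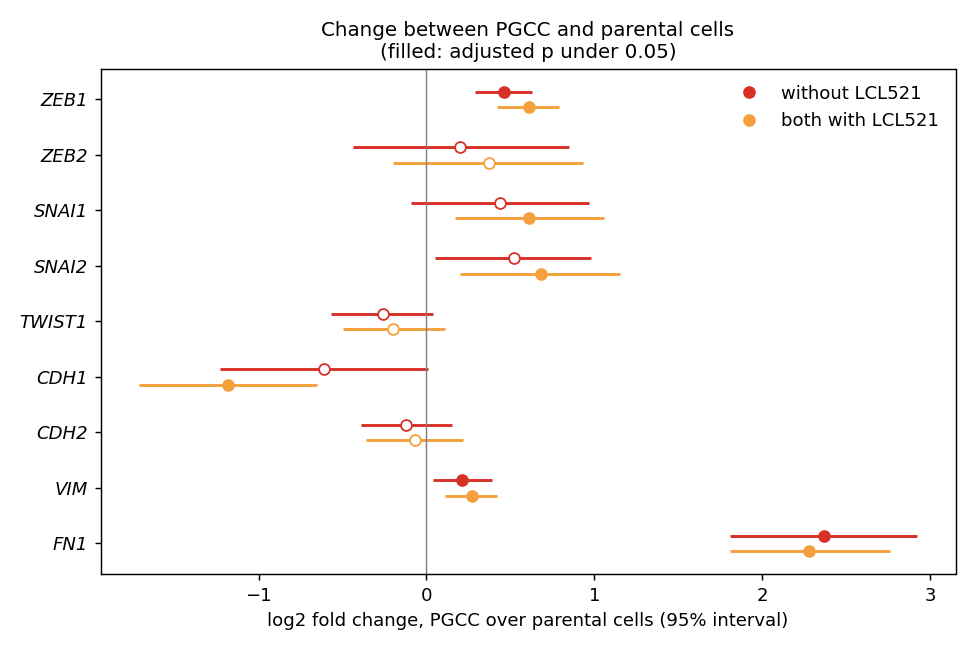
Log2 fold change between PGCC and parental cells for the 9 tested genes, in red without LCL521 and in orange with LCL521 in both populations. Points are edgeR estimates, lines are 95% intervals and filled points have an adjusted p under 0.05. FN1 changed by 2.37 and 2.28, and all other log2 changes lie between -1.18 and 0.68.

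In bulk RNA a change in the mix of cells and a change in RNA per cell cannot be told apart, and markers of other cells are given here for that reason. Of 9 markers of prostate epithelium, KRT8, KRT18 and HOXB13 were high, with HOXB13 at 309 CPM or more in every library. The 9 summed to 803 to 1210 CPM in parental cells and to 689 to 884 CPM in PGCC. HOXB13 was lower in PGCC (log2 change -0.80, adjusted p = 0.000213 by edgeR), as was KRT18, while KRT8 was higher. KLK3 and KLK2 had 0 counts in all 24 libraries and TMPRSS2 had at most 2, so these secretory markers of the labelled cell type were absent. The 7 fibroblast markers summed to 53.7 to 136 CPM in parental cells and to 87.0 to 209 CPM in PGCC. Of these, COL1A2, COL3A1 and PDGFRA were called higher in PGCC, while COL1A1, with 87 to 247 counts per library, was not called. DCN, LUM and PDGFRB stayed at or under 11 counts. The 5 leukocyte markers summed to 0.41 to 2.77 CPM and 2.52 to 4.28 CPM, nearly all of it PTPRC, which was called higher in PGCC (log2 change 1.39, adjusted p = 0.0164), and CD3E had at most 1 count. The 4 endothelial markers in the table summed to 1.21 to 6.67 CPM in parental cells and 3.08 to 6.11 CPM in PGCC. Their part in the results was not tested.

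LCL521 for 5 h moved none of these genes past the threshold. In parental cells 0 of 9 genes were called and the log2 changes lay between -0.17 and 0.26. That comparison called 0% of all genes tested, with 71 at an unadjusted p under 0.05 in edgeR, and DESeq2 called 0. In PGCC 0 of 9 were called and the changes lay between -0.33 and 0.11, against 0.00707% of all genes tested, which is 1 gene, and 218 at an unadjusted p under 0.05. DESeq2 called 6. None of the 9 genes had an unadjusted p under 0.05 in either comparison. For the interaction edgeR called 0% of all genes tested, and 60 had an unadjusted p under 0.05. DESeq2 called 0 there.

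CDH1 had the largest log2 change with LCL521 in size among the 9 genes in both populations, although it was not called with or without the block. The change was 0.26 (95% interval -0.43 to 0.94) in parental cells and -0.33 (-0.78 to 0.12) in PGCC. CDH1 was higher with LCL521 in 5 of 6 experiments in parental cells and lower in 5 of 6 in PGCC. VIM was lower with LCL521 in 6 of 6 experiments in both populations, with log2 changes of -0.11 and -0.08 (paired exact p = 0.0312 in each, the smallest possible). SNAI2 was lower in 6 of 6 experiments in parental cells, with a mean log2 difference of -0.17 and the same paired exact p of 0.0312, and in 4 of 6 in PGCC (-0.05, paired exact p = 0.344). With the block, 0.866% of all genes tested were called for LCL521 in parental cells and 1.65% in PGCC, and still 0 of the 9 genes. VIM then had adjusted p of 0.22 and 0.306. At an unadjusted p under 0.05 the block gave 3 of the 9 genes in each population. Of all genes tested it gave 1648 of 13277 in parental cells and 2030 of 14151 in PGCC.

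Further genes of the EMT programme were read from 6 lists, whose counts of calls stand against 23.1% of all genes higher and 24.3% lower in PGCC without LCL521, and 25% higher and 23.9% lower with it. The first held mesenchymal effector genes, which build and cross-link the matrix or drive motility. Of 30 listed, 24 were tested, 16 were higher and 2 were lower in PGCC, and their median log2 change was 0.73 against -0.03 for all genes tested. With LCL521 17 were higher and 2 lower, with a median of 0.84. VCAN, the matrix proteoglycan versican, went from 0.263 ± 0.205 to 2.00 ± 0.667 CPM (SD, n = 6, log2 change 2.93, adjusted p = 0.000171). It had 0 to 8 counts per library in parental cells and 23 to 49 in PGCC, and it passed the filter only through PGCC. VCAN is among the 16 counted higher, and it was tested only because of its level in PGCC. LOXL2, which cross-links collagen, went from 15.2 ± 2.91 to 64.7 ± 5.95 CPM (2.11, adjusted p = 4.00e-08). SPARC, a matrix glycoprotein of the same list, fell from 364 ± 44.6 to 175 ± 7.45 CPM (-1.03, adjusted p = 5.08e-07). CDH13, a cadherin without a membrane-spanning part, fell from 48.9 ± 8.35 to 30.9 ± 6.04 CPM (-0.64, adjusted p = 0.00229).

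Of 34 junction genes 25 were tested, and 9 were higher and 2 lower in PGCC both without and with LCL521, with medians of 0.17 and 0.27. These 11 calls are a share close to the 47.4% and 48.9% of all genes tested that were called. By direction, the 9 of 25 higher stand against 23.1% of all genes tested without LCL521 and 25% with it. The 2 of 25 lower stand against 24.3% and 23.9%. The medians of all genes tested were -0.03 and -0.01. MUC1, a surface mucin, went from 2.10 ± 0.517 to 8.32 ± 2.02 CPM (2.01, adjusted p = 2.99e-06), and DSC2, a desmosomal cadherin, from 18.5 ± 4.65 to 67.9 ± 5.00 CPM (1.90, adjusted p = 2.27e-07). CGN, the tight junction protein cingulin, rose with a log2 change of 1.16 (adjusted p = 0.0371), a call that was lost without replicate 1, 2, 3 or 6 (adjusted p 0.0506 to 0.0854). The 2 genes that fell were PKP3, a desmosomal plaque protein, from 58.1 ± 2.57 to 28.9 ± 3.59 CPM (-0.99, adjusted p = 1.30e-06), and MARVELD2, the tricellular junction protein tricellulin (-1.02, adjusted p = 0.00029).

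Among 8 keratin genes 6 were tested, 3 were higher and 1 was lower in both comparisons, with medians of 0.25 and 0.19. KRT14, a keratin of basal cells, had 0 to 2 counts in each parental library and 54 to 152 in each PGCC library (adjusted p = 1.06e-06). With LCL521 it had 0 to 2 and 50 to 111 counts. KRT14 passed the filter only through PGCC in both comparisons. It is among the 3 counted higher, and it was tested only because of its level in PGCC. KRT8, a keratin of simple epithelia, rose by 1.35 on the log2 scale (adjusted p = 3.51e-06), while its usual partner KRT18 fell by 0.46 on the log2 scale (adjusted p = 0.00196), a call lost on replicates 4 and 5 alone (-0.26, adjusted p = 0.0807). KRT19 rose by 0.42 (adjusted p = 0.0194), a call that was lost without replicate 1 or 4 (adjusted p 0.0683 and 0.0756) and without both 4 and 5 (0.25, adjusted p = 0.0691).

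Of the 15 epithelial regulators, 11 were tested without LCL521, 3 were higher and 4 lower, with a median of -0.15, and with LCL521 10 were tested with the same counts and a median of -0.18. GRHL1, ELF3 and KLF5, transcription factors of epithelial cells, rose by 1.09, 0.71 and 0.62 on the log2 scale. The change in KLF5 was 0.01 on replicates 4 and 5 alone (adjusted p = 0.977) and 0.97 without them, and with LCL521 it was 0.22 (adjusted p = 0.0813) and 1.17. ESRP1 and ESRP2, the splicing factors that keep epithelial isoforms in place and that ZEB1 is known to repress, both fell. ESRP1 had 0.879 to 65.4 CPM in parental cells, where replicates 4 and 5 held 65.4 and 29.2 CPM and the other 4 held 5.30 CPM or less. In PGCC it had 0.3 to 1.13 CPM, and it passed the filter only through parental cells. ESRP1 is among the 4 counted lower, and it was tested only because of its level in parental cells. Its log2 change was -4.96 (adjusted p = 0.00187), and without replicates 4 and 5 it was -2.45 (adjusted p = 0.00218). In limma-voom the call was lost (-3.34, adjusted p = 0.0563). ESRP2 fell from 119 ± 35.5 to 58.7 ± 8.80 CPM (-0.99, adjusted p = 0.000534). On replicates 4 and 5 alone the change was -0.12 (adjusted p = 0.411), and without them it was -1.35. With LCL521 these values were -0.14 (adjusted p = 0.245) and -1.30. EHF, an ETS factor of epithelia, fell from 175 ± 31.7 to 74.8 ± 11.2 CPM (-1.20, adjusted p = 4.96e-06).

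Of 16 other transcription factors linked to EMT, 11 were tested, and 4 were higher and 2 lower in both comparisons, with medians of -0.14 and 0. ETS1 went from 65.4 ± 19.3 to 188 ± 76.9 CPM (1.55, adjusted p = 0.000494). On replicates 4 and 5 alone ETS1 changed by 0.13 on the log2 scale (adjusted p = 0.461), and without them by 2.15, and with LCL521 by 0.21 (adjusted p = 0.11) and 2.26. FOSL1 of the AP-1 family rose by 0.69 (adjusted p = 0.00889) and FOXC1 by 0.68 (adjusted p = 0.00624). ZNF281 fell by 0.82 on the log2 scale (adjusted p = 0.000752), and SOX4 fell by 0.48 on the log2 scale (adjusted p = 0.0255), which was lost without replicate 1 or 5 (adjusted p 0.0622 and 0.0941), without both replicates 4 and 5 (-0.24, adjusted p = 0.0547) and with library totals in place of TMM factors (adjusted p = 0.068).

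The last list held 26 cofactors of the repressors and enzymes that set their stability. Of the 24 tested, 7 were higher and 5 lower without LCL521, and 7 were higher and 4 lower with it, with medians of -0.04 and -0.03. With the block 7 were higher and 8 lower without LCL521, and 9 were higher and 7 lower with it. That block called 56.2% of all genes tested without LCL521 and 56.3% with it. DNMT1 and EZH2, which write repressive marks on DNA and on histone H3, rose by 0.89 and 0.81 on the log2 scale (adjusted p = 0.000107 and 0.000312). LATS2, a Hippo pathway kinase known to act on Snail, rose by 1.03 (adjusted p = 0.00451), but on replicates 4 and 5 alone the change was 0.08 (adjusted p = 0.657), and without them 1.67. FBXL14 and SIAH1, ubiquitin ligases with EMT factors among their substrates, fell by 1.11 and 0.90 on the log2 scale (adjusted p = 2.96e-05 and 0.001). SIN3A, a corepressor scaffold, fell by 0.43 on the log2 scale without LCL521 (adjusted p = 0.0144). With LCL521 its change was -0.34 (adjusted p = 0.0534), and with the block this passed the test (adjusted p = 0.00153). In the LCL521 comparisons edgeR called 0 genes of these 6 lists without the block. With it 5 of 97 tested were called in parental cells, against 0.866% of all genes tested. Among them were ETS1, FOSL1 and KLF5, lower with LCL521 by log2 changes of -0.30, -0.24 and -0.30 (adjusted p 0.0138, 0.0204 and 0.0204). In PGCC 6 of 102 were called with the block, against 1.65% of all genes tested, among them ETS1 (-0.23, adjusted p = 0.00262).

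**Figure D4:**
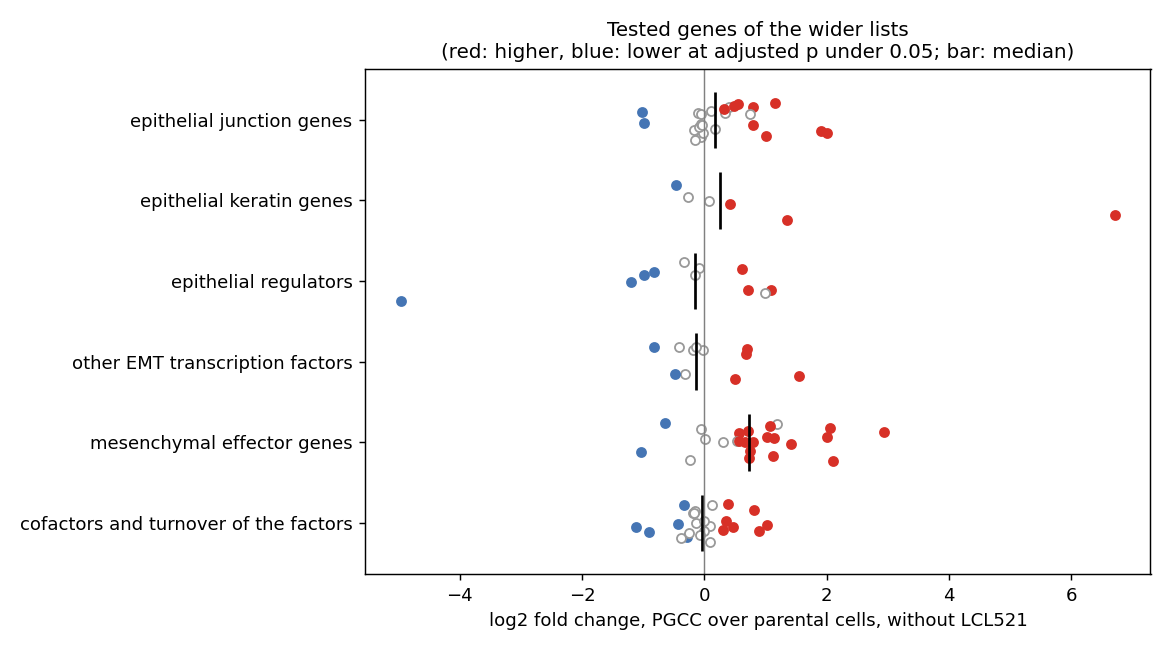
Log2 fold change between PGCC and parental cells without LCL521 for every tested gene of the 6 wider lists. Each point is 1 gene, red points were higher and blue points lower at an adjusted p under 0.05, open points were not called, the bar is the median and the vertical spread within a list has no meaning. The mesenchymal effector genes have a median of 0.73, and the other lists have medians between -0.15 and 0.25.

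For each of the 10 genes, the 2 genes with the most similar log2 CPM over the 24 libraries were found among 14531 others, as a description only, since the libraries share experiments and populations. FN1 was most like KIAA1199 (Pearson r = 0.968) and PTHLH (0.961), and ZEB1 most like CD109 (0.959) and ASPM (0.957). With the condition means removed these fell to between 0.61 and 0.765. SNAI2 was most like PDGFB (0.971) and ENTPD7 (0.956), and here r was 0.967 and 0.966 within conditions. CDH2 was most like CCDC47 (0.916) and EFNB2 (0.905), TWIST1 most like HSPB1 (0.893) and SPR (0.887), and SNAI1 most like BAZ1A (0.887) and TUBB2A (0.884). CDH1 was most like TRMT1 (0.871) and ENOSF1 (0.866), and VIM most like FBXO18 (0.861) and HMGA1 (0.858). The lowest values were those of the sparse genes, EPCAM with PCM1 (0.838) and WDFY3 (0.829) and ZEB2 with FMO4 (0.731) and KIAA1328 (0.715).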

How the data were processed

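The authors deposited whole-number read counts per gene for 24 libraries, without normalization, together with gene lengths and coordinates. The submitters' processing notes name CASAVA, STAR, HTSeq, DESeq2 and hg19. Strand setting and annotation release are not given in the sources used here. DESeq2 1.42.0, limma 3.58.1 and edgeR 4.0.16 were run in R 4.3.3. Genes were filtered with filterByExpr (minimum count 10, minimum total 15) and scaled by TMM, and edgeR's quasi-likelihood test was fitted to the 12 libraries of a comparison, or to all 24 for the interaction. P-values were adjusted by Benjamini-Hochberg over all genes tested, at 0.05. Log2 CPM carries a prior count of 2. The procedure was tested on simulated counts.

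The study's design says that 4 conditions were harvested in parallel in 6 independent experiments. Deviations of same-numbered libraries from their condition means correlated at 0.171 or more in all 4 comparisons, so the numbers were taken to pair the libraries, and every comparison was repeated with the number as a block. Without LCL521, 5 of 6 PGCC libraries correlated best with the parental library of the same number, and with LCL521 3 of 6 did. The members and lists were chosen with earlier results of these data known. All 10 members are described, and from each list up to 3 largest rises and 3 largest falls past the threshold between PGCC and parental cells, without LCL521. A few genes of the lists are not reported here. Alternatives were DESeq2, limma-voom, other size factors, no filter, 1 fit to all libraries, a length correction, each replicate left out, and replicates 4 and 5 left out or alone.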

Additional observations from a re-analysis of the deposited data

Results flagged for a closer look

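The 10 genes in 4 conditions give 40 groups of 6 libraries, and in 3 of them the lowest or highest library stood apart by Dixon's criterion (gap over range above 0.625). Chance flags about 1 in 20 groups. CDH1 in parental cells with LCL521 was 6.52 CPM in replicate 6, and the next highest library had 3.39 CPM. ZEB2 in parental cells was 1.72 CPM in replicate 4, against 0.938 CPM in the next. ZEB2 in parental cells with LCL521 was 0.288 CPM in replicate 6, against 0.823 CPM in the next lowest. Without replicate 6 the log2 change of CDH1 between PGCC and parental cells, both with LCL521, was -0.93, against -1.18 in all 6 replicates. Both ZEB2 values rest on few reads, 30 counts in the first and 5 in the second.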

How the results depend on the processing

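The calls of FN1 and ZEB1 in both comparisons and of CDH1 with LCL521 held under all alternatives run. Of 449 alternative values for single genes among the 10, 402 kept direction and side of the threshold, 19 lost and 24 gained a call, and 4 changed sign. On replicates 4 and 5 alone TWIST1 was 0.18 without and 0.28 with LCL521, and ZEB2 was -0.27 without it. Leaving out replicates 4 and 5 gave CDH2 0.08 with LCL521. LATS2 with LCL521 was -0.03 on replicates 4 and 5 alone, the 1 sign change among 1240 values for genes of the wider lists. The cause was not tested. VIM lost its call without a filter on low counts (adjusted p = 0.14, and 0.0772 with LCL521). Library totals in place of TMM factors moved the median of all genes from -0.03 to 0.07 on the log2 scale and turned no direction among the 10 genes.

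Leaving out each replicate in turn gave 2 to 3 called genes of the 10 without LCL521 and 4 to 6 with it. In the whole table these fits called 5529 to 6333 genes without LCL521 and 5734 to 6339 with it. With all 6 replicates the numbers were 6541 and 6758. Averaging both pairs of populations in one fit called 7 genes, against 64.5% of all genes tested. With the replicate block it called 9, where 10769 of all genes were called (74%). These fits count libraries with and without LCL521 of the same experiment and population as independent. With the replicate block alone the number of called genes in the whole table was 115 for LCL521 in parental cells and 234 in PGCC, and with a length correction added it was 229 and 255. The LCL521 comparison in PGCC called 1 gene, 6 in DESeq2, 0 in limma-voom, 0 in a fit to all 24 libraries, 0 to 1 without each replicate in turn, and 0 without or with only replicates 4 and 5. In the comparisons of PGCC with parental cells the block changed the call of SNAI2 among the 10 genes without LCL521, and among the genes the rule named in the wider lists that of SIN3A with LCL521. For LCL521 itself it called 0 of the 10 genes. In the wider lists it called 5 of 97 tested genes in parental cells and 6 of 102 in PGCC, where 0 were called without it. The shares of all genes tested were 0.866% and 1.65%. Depth limits EPCAM, ZEB2 and CDH1, with at most 17, 30 and 113 counts per library.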

Other observations

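Adhesion by cadherins needs catenins that tie them to actin, and these differed widely in level. CTNNA1, which encodes the actin-binding alpha-catenin, had 10 to 36 counts per library and means of 1.07 ± 0.404 CPM in parental cells and 1.34 ± 0.414 CPM in PGCC (SD, n = 6), with a log2 change of 0.33 (adjusted p = 0.353 by edgeR). CTNNB1, the beta-catenin gene, had means of 274 and 240 CPM (-0.17, adjusted p = 0.128, and 0.0391 with the experiment as a block). CTNND1, the p120-catenin gene, had means of 265 and 327 CPM (0.32, adjusted p = 0.00255). DSP, the desmoplakin gene, had at most 6 counts in any library, whereas the desmosomal cadherin gene DSC2 had 196 or more. CTNNA1, CTNNB1, CTNND1 and DSP were chosen after their values were seen.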
